A study of Rattus norvegicus with 8 samples.

Results

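The genes described here encode proteins of the node of Ranvier and of the paranode and juxtaparanode that flank it. They were measured in injured and sham-operated rat spinal cord. The set was defined by name as 10 genes, namely Scn8a, Ank3, Sptbn4, Nfasc, Cntnap1, Cntn1, Cntn2, Cntnap2, Kcna1 and Kcna2. A gene was matched where the platform annotation gave a probe set exactly 1 symbol. This found 9 of the 10 genes among 18166 genes in all, each with a single probe set, and Cntnap2 was not analysed here. No filter on low values was applied, so all 9 were tested.

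The 8 arrays hold messenger RNA of thoracic cord from male Long Evans rats of about 175 days. On 4 of them the cord had been injured at thoracic level (spinal cord injury, SCI), and on the other 4 only the laminectomy was done (sham). Both groups recovered for 4 weeks on chow and were then moved to a palatable diet with 40% fat, for which the labels give a total of 8 weeks, so the diet is shared and is not compared. The tissue is given as thoracic segments 10 to 11 in one label and 11 to 12 in another, and how far it lay from the lesion is not stated. The labels do not tie the arrays to numbered animals, and p-values measure the spread between these arrays.

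The node is the short gap between myelin segments where the action potential is renewed. Voltage-gated sodium channels are held there by the scaffold ankyrin-G and a spectrin beneath the membrane. At the paranode, the loops of the myelinating glial cell attach to the axon through contactin-1 and Caspr on the axon and a neurofascin isoform on the glia. Potassium channels of the Shaker family lie under the compact myelin of the juxtaparanode, held by contactin-2 and Caspr2. Most messenger RNA for the axonal proteins is in neuronal cell bodies, so a piece of cord reports the neurons and glia inside it and not the axons that pass through from elsewhere. In whole tissue, fewer cells of a type and less RNA per cell cannot be told apart.

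In injured cord, 6 of the 9 genes were lower than in sham and 0 were higher, at a limma adjusted p under 0.05. Across all genes tested, 7.06% (1282) were lower and 7.1% (1290) higher by the same rule, or 14.2% in either direction. With each array centred on its median these became 1738 and 1104, and the 6 genes were still called. The 6 were the nodal sodium channel Scn8a, its anchor Ank3, the paranodal Cntnap1, and the juxtaparanodal Cntn2, Kcna1 and Kcna2, which lay at 61.6% to 79.2% of their sham signal. For each of them all 4 SCI arrays lay below all 4 sham arrays, a pattern seen in 10.9% of all genes, while 9.36% showed the opposite one. The other 3 genes, Cntn1, Nfasc and Sptbn4, overlapped between the groups. The median log2 difference, SCI minus sham, was -0.41 over the 9 genes and -0.01 over all genes. Without SCI 3, sham 1 and sham 2, a trio of arrays that stood apart from the rest on the second principal component, 2 of the 9 genes passed (Cntnap1 and Ank3), and 1.56% of all genes were lower. With any 1 of SCI 2, sham 3 or sham 4 left out, 3 of the 9 passed. In those 3 fits 4.29%, 5.22% and 4.61% of all genes were lower. Fits with arrays left out have less power, so a call lost in them does not by itself mean a smaller difference.

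The promoters of the genes that fell are shown beside those of Cntn1 and Sptbn4, which did not pass, because they are the regulatory sequence nearest to the measured transcripts. RefSeq promoter windows of the GRCr8 build were found for 7 of the 10 genes. Those of Cntnap1, Kcna1 and Cntnap2 are named only. Each sequence is the 250 bases before a listed start, read 5′ to 3′ on the strand of the gene. The windows are chr7:133860977-133861226 on the plus strand for Scn8a, chr2:197393280-197393529 on the plus strand for Kcna2, chr13:46528026-46528275 on the minus strand for Cntn2, chr20:18929178-18929427 on the minus strand for Ank3, chr7:125252060-125252309 on the plus strand for Cntn1, and chr1:91864841-91865090 on the minus strand for Sptbn4. Capitals mark matches, on either strand, to the GC box GGGCGG or to CCAAT. The motif TATAAA was also searched on both strands and had 0 matches in these windows. The E-box CACGTG likewise had 0. No match overlapped another.
Scn8a: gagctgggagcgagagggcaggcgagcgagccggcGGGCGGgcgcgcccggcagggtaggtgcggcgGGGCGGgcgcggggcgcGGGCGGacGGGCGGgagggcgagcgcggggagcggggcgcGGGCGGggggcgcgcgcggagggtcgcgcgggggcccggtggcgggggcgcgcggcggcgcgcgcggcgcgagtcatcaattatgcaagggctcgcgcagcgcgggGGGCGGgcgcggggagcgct
Kcna2: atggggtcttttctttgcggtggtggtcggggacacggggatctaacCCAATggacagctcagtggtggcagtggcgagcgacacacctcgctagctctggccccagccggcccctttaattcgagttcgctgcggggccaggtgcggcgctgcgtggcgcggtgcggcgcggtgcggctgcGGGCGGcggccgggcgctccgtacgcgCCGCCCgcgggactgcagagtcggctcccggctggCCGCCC
Cntn2: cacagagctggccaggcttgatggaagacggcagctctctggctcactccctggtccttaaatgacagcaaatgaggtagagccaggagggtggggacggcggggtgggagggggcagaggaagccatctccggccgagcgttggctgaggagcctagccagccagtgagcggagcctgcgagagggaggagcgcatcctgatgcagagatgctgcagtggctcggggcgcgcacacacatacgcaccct
Ank3: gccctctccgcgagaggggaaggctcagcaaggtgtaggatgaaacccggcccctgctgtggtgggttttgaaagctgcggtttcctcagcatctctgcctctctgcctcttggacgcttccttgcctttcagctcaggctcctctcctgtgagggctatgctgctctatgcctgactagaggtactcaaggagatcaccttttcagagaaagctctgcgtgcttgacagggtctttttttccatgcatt
Cntn1: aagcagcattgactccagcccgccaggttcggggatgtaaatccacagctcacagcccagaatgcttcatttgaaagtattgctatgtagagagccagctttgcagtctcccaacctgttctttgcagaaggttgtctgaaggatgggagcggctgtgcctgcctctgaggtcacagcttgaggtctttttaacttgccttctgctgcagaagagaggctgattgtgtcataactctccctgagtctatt
Sptbn4: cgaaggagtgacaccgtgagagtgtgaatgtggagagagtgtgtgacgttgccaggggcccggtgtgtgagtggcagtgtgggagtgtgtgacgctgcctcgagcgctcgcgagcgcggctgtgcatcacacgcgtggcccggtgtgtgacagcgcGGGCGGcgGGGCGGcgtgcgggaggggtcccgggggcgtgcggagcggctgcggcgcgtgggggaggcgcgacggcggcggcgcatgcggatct
The Scn8a window held 6 matches to GGGCGG and was 86% G and C, more than in 99.9% of 33469 rat promoter windows of this length. The Kcna2 window held 3 matches to GGGCGG and 1 to CCAAT at 72.4% G and C. The windows of Cntn2, Ank3 and Cntn1 held 0 matches, at 64.4%, 54.8% and 50% G and C. The Sptbn4 window held 2 matches to GGGCGG at 72.4% G and C, as rich as that of Kcna2. Nfasc has 2 listed starts, whose windows were 52.8% and 52% G and C, and 1 of them held a CCAAT match. Among all windows, GGGCGG was present in 30.5% and the CCAAT motif in 34% of promoters. For TATAAA the share of all promoters was 12.9%. For CACGTG it was 5.59%, and the median promoter was 51.2% G and C. So the 4 genes shown that fell did not share a match to any of the 4 motifs within these letters. A match is a description of the sequence, and the arrays do not show which start a gene used.

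At the node, Scn8a, the sodium channel of mature nodes, had log2 signals of 8.14, 8.39, 8.10 and 8.06 on sham arrays 1 to 4 and of 7.57, 7.29, 7.47 and 7.60 on SCI arrays 1 to 4. Every injured array lay below every sham array, and the groups were separated by more than either spread. The mean went from 8.17 ± 0.15 to 7.48 ± 0.14 (log2, SD, n = 4 arrays a group), a log2 difference of -0.69 (SE 0.11, limma adjusted p = 0.0024), so the injured signal was 61.9% of sham (probe set 17832401). The call held without any 1 array and was lost without SCI 3, sham 1 and sham 2 together (-0.60, limma adjusted p = 0.058).

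Ank3 encodes ankyrin-G, the scaffold that holds sodium channels at nodes and at the axon initial segment. It read 7.96, 8.04, 7.99 and 7.98 in sham 1 to 4 and 7.45, 7.43, 7.21 and 7.51 in SCI 1 to 4. The sham arrays were close together, and SCI 3 was the lowest of the injured arrays. The difference was -0.59 (SE 0.09, limma adjusted p = 0.0025), from 7.99 ± 0.03 to 7.40 ± 0.13 (log2, SD, n = 4), or 66.4% of the sham signal (probe set 17758078). It passed under all 17 alternative settings, with adjusted p up to 0.048.

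Sptbn4 encodes the spectrin that links ankyrin-G to actin at nodes. Its probe set (17630908) was dim, with a mean of 3.70 against a median of 4.74 over all genes. The log2 signals were 3.41, 3.64, 3.81 and 4.02 in sham 1 to 4 and 3.44, 3.81, 3.40 and 4.06 in SCI 1 to 4. The groups covered the same range. The difference of -0.04 had a 95% interval from -0.42 to 0.34 (limma adjusted p = 0.92). This interval holds changes as large as those of Cntn2 and Kcna2, so a fall of that size was not detectable in this dim probe set.

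Nfasc encodes the neurofascins, of which the neuronal isoform sits at the node and the glial isoform at the paranode. A single probe set (17684169) covered the gene, so the isoforms were not told apart. It read 8.09, 8.07, 8.06 and 8.14 in sham 1 to 4 and 8.02, 7.95, 8.03 and 8.07 in SCI 1 to 4. SCI 4 lay within the sham range and the other injured arrays just below it. The difference was -0.07 with a 95% interval from -0.26 to 0.11 (limma adjusted p = 0.65). The interval leaves out falls as large as the estimate for any of the 6 lower genes.

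At the paranode, Cntnap1 encodes Caspr, the axonal partner that the paranodal junction needs to form. Its difference was the largest of the 9 genes, close to that of Scn8a. Its log2 signals were 7.21, 7.36, 7.12 and 7.18 in sham 1 to 4 and 6.42, 6.44, 6.53 and 6.68 in SCI 1 to 4. The highest injured array was well below the lowest sham array. The mean went from 7.22 ± 0.10 to 6.52 ± 0.12 (log2, SD, n = 4), a difference of -0.70 (SE 0.10, limma adjusted p = 0.0012) or 61.6% of the sham signal (probe set 17651220). All 17 alternative settings kept the call, with adjusted p up to 0.043.

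Cntn1 encodes contactin-1, which binds Caspr on the axon and is also made by cells of the oligodendrocyte lineage. It read 10.06, 10.24, 10.14 and 10.06 in sham 1 to 4 and 10.10, 10.01, 10.14 and 10.19 in SCI 1 to 4. The groups lay over each other on a bright probe set (17831864). The difference was -0.02 with a 95% interval from -0.22 to 0.18 (limma adjusted p = 0.94), so the whole interval lies above the estimate for Cntnap1, whose own interval ran from -0.92 to -0.48.

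At the juxtaparanode, Cntn2 encodes contactin-2, which is present on axon and glia and helps to hold the potassium channels. It read 7.37, 7.45, 7.60 and 7.46 in sham 1 to 4 and 6.94, 6.95, 7.04 and 7.32 in SCI 1 to 4. SCI 4 came close to the lowest sham array, sham 1, without reaching it. The difference was -0.41 (SE 0.11, limma adjusted p = 0.032), from 7.47 ± 0.09 to 7.06 ± 0.18 (log2, SD, n = 4; probe set 17684141). The call was lost when any 1 of SCI 1, SCI 2, SCI 3, sham 2, sham 3 or sham 4 was left out (adjusted p 0.063 to 0.092), and without SCI 3, sham 1 and sham 2 (0.145).

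Kcna1 encodes a Shaker-type potassium channel subunit. It read 9.61, 9.57, 9.90 and 9.79 in sham 1 to 4 and 9.22, 8.85, 8.81 and 9.44 in SCI 1 to 4. Its injured arrays were the most spread of the 6 lower genes, with SCI 4 near the sham range. The difference was -0.64 (SE 0.15, limma adjusted p = 0.018), from 9.72 ± 0.16 to 9.08 ± 0.30 (log2, SD, n = 4), or 64.4% of the sham signal (probe set 17795062). The adjusted p was 0.051 to 0.057 without SCI 2, sham 3 or sham 4, and 0.083 without SCI 3, sham 1 and sham 2.

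Kcna2 encodes the subunit that joins Kcna1 in the same channels. It read 8.20, 8.26, 8.23 and 8.13 in sham 1 to 4 and 7.73, 7.91, 7.87 and 7.96 in SCI 1 to 4. The groups did not overlap, and the gap between SCI 4 and sham 4 was small. The difference was -0.34 (SE 0.09, limma adjusted p = 0.032), from 8.21 ± 0.06 to 7.87 ± 0.10 (log2, SD, n = 4), or 79.2% of the sham signal (probe set 17741790). The call was the least stable of the 6 and was lost without any 1 array but SCI 4 (adjusted p 0.051 to 0.095) and without SCI 3, sham 1 and sham 2 (0.21).

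**Figure D1:**
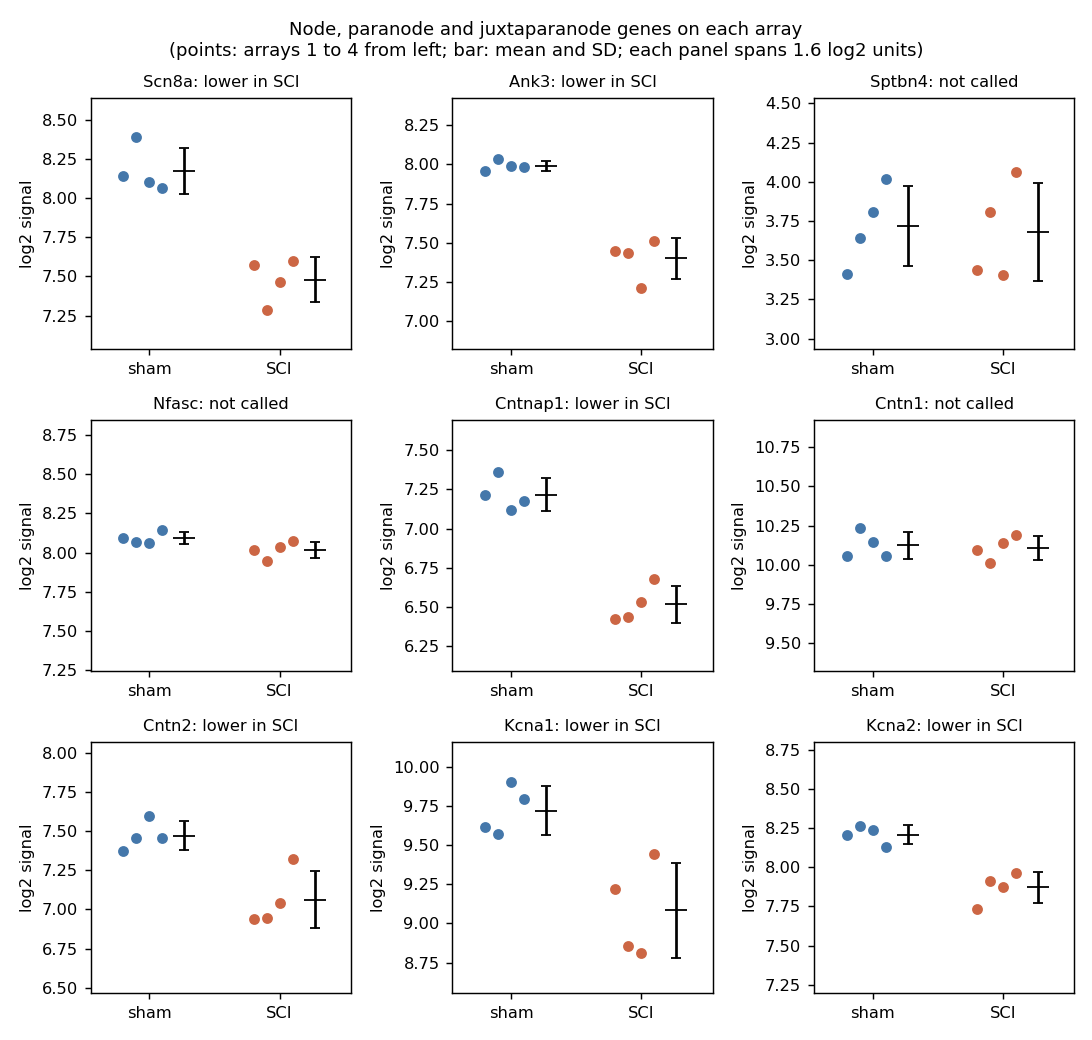
Log2 signal of each of the 9 genes on the 4 sham arrays (blue) and the 4 SCI arrays (orange), with the mean and SD of each group in black and every panel spanning the same log2 range. Scn8a, Ank3, Cntnap1, Cntn2, Kcna1 and Kcna2 show no overlap between the groups, whereas Sptbn4, Nfasc and Cntn1 overlap.

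The injured arrays were not alike. For each of the 6 lower genes, SCI 4 was the highest of the injured arrays and lay nearest to sham. Its distance from the sham mean was smallest for Cntn2, at 7.32 against 7.47. The same array had the highest mean of the pan-neuronal list within SCI (8.57, against 8.32 to 8.51 on the others) and of the myelin list (8.74, against 8.49 to 8.63). It also had the lowest mean of the myeloid list (8.17, against 8.38 to 8.58). In the comparison within the trio of arrays that stood apart, SCI 3 against the mean of sham 1 and sham 2, the log2 differences of the 6 genes were -0.36 to -0.80. Among the other 5 arrays they were -0.31 to -0.67.

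**Figure D2:**
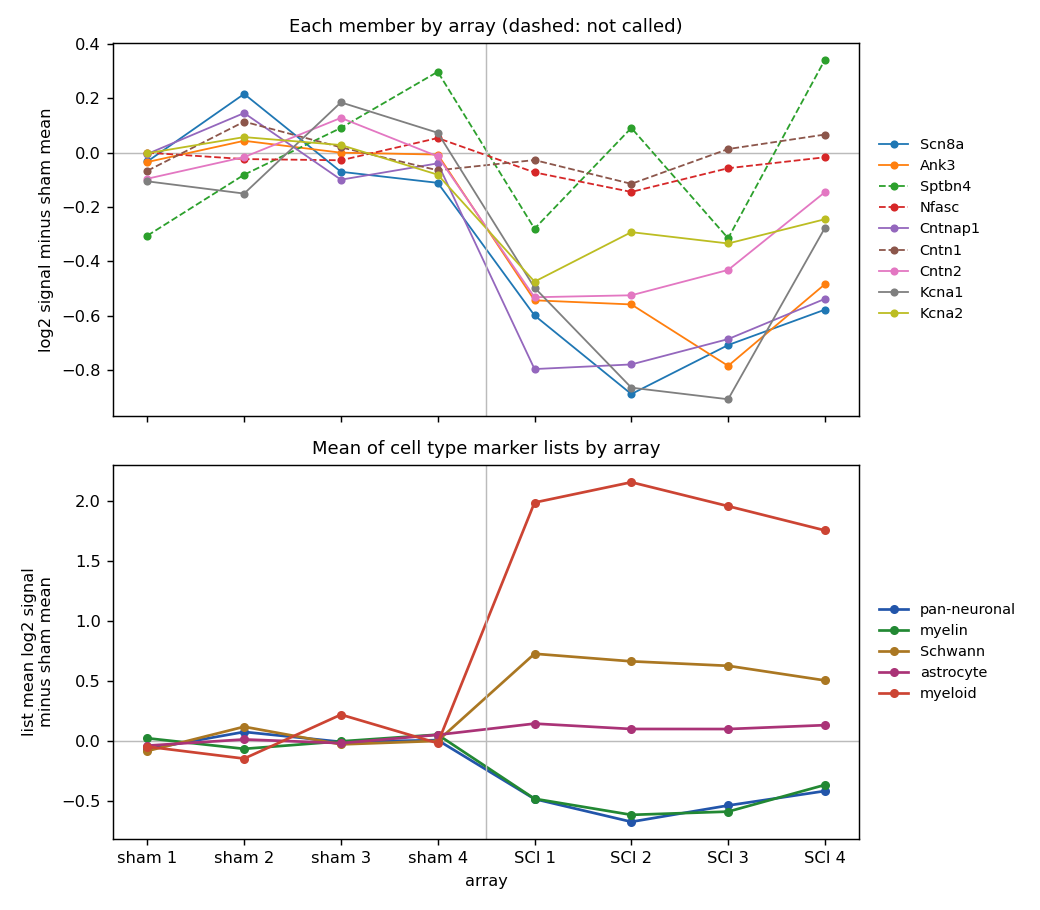
Log2 signal of each gene (top) and mean log2 signal of 5 cell type marker lists (bottom) on every array, as the distance from the sham mean. SCI 4 is the injured array nearest to sham for all 6 called genes and, in the lower panel, for the pan-neuronal, myelin, Schwann and myeloid lists.

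Pairs of related proteins were compared by the difference of their log2 signals within each array, tested by exact permutation (two-sided, 70 assignments of the 8 arrays) and adjusted over the 4 pairs. The smallest p this test can give is 0.029, and at least 3 of the 4 pairs must reach it before any can pass. The contactins parted in the size of their change, as Cntn2 minus Cntn1 moved by -0.39 (SE 0.08) with no overlap between the groups (exact p = 0.029, adjusted 0.11), which does not pass after adjustment. For the Shaker subunits, Kcna2 minus Kcna1 moved by 0.30 (SE 0.18, exact p = 0.17, adjusted 0.34). Scn8a minus its anchor Ank3 moved by -0.10 (SE 0.10, exact p = 0.43, adjusted 0.43). Nfasc minus Cntn1, which meet across the paranodal gap, moved by -0.06 (SE 0.06, exact p = 0.37, adjusted 0.43). With 4 arrays a group these values do not show that the partners changed alike.

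General neuronal markers and most myelin markers were also lower. All 18 pan-neuronal genes tested fell, with a median of -0.52, and the sum of their signals on the linear scale was 10546 to 12637 on SCI arrays and 15585 to 17425 on sham arrays. Rbfox3, a splicing factor of neuronal nuclei, fell by 0.61 on the log2 scale (SE 0.12, limma adjusted p = 0.0083), a call lost with the title number as covariate (0.058) and without SCI 3, sham 1 and sham 2 (0.10). Of 6 motor neuron genes 1 fell, 0 rose and 5 were not called, with a median of -0.25. The sums of their signals were 282 to 309 in SCI and 347 to 407 in sham. Of 15 myelin genes 9 fell and 0 rose, with a median of -0.57 and sums of 8308 to 9588 in SCI and 12643 to 13523 in sham. Mbp, a main protein of compact myelin, fell by 0.70 on the log2 scale (SE 0.09, limma adjusted p = 9e-04), or by 0.39 as the mean of its probe sets.

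Markers of myeloid cells and some markers of Schwann cells were higher. All 13 myeloid genes rose, with sums of 6056 to 7895 in SCI and 1568 to 1971 in sham, among them the lysosomal glycoprotein Cd68 at a difference of 4.17 (SE 0.14, limma adjusted p = 8.8e-08). Of 11 Schwann cell genes 6 rose and 0 fell, with sums of 3541 to 3837 in SCI and 2044 to 2259 in sham. These sums rest mainly on Pmp22 and Fabp7, the brightest of the 11. Their log2 means were 10.63 and 10.61 in SCI and 9.81 and 9.83 in sham. The 5 not called were Prx, Pmp2, Egr2, Cdh19 and Sox2, all with positive differences (limma adjusted p of 0.10, 0.14, 0.076, 0.27 and 0.65). Astrocyte markers were mixed, as 2 of 10 rose and 1 fell, with a median of 0.01. The filament gene Gfap rose by 0.81 (SE 0.09, limma adjusted p = 2.3e-04), and the glutamate transporter Slc1a2 fell by 0.39 (SE 0.11, 0.032). Of 11 genes of oligodendrocyte precursors 3 rose (Pdgfra, C1ql1 and Lhfpl3) and 2 fell (Olig1 and Sox10, which mature oligodendrocytes also express), with a median of 0.10. Without SCI 3, sham 1 and sham 2, Slc1a2 and each of those 5 precursor genes lost its call. The part of these cells in the results was not tested. As a coarse check of the tissue, since probe sets differ in response, signals were set against the median of all genes. Of 7 Hox patterning genes, not all of them thoracic, 4 lay above it (Hoxc8, Hoxb8, Hoxc9 and Hoxa9) and Hoxb9, Hoxc10 and Hoxd10 below. The muscle genes Acta1, Ckm and Myl1 lay below it, and the globin genes Hbb-b1 and Hba-a1 above, at 8.54 and 8.01.

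Relative to the mean of the 18 pan-neuronal genes on the same array, none of the 6 lower genes passed, in a test where at least 6 of the 9 must reach the smallest p before any can pass. Cntnap1 differed by -0.17 (SE 0.06) and did not overlap between the groups (exact permutation p = 0.029, adjusted over the 9 genes 0.086), and Scn8a differed by -0.16 (SE 0.06, exact p = 0.057, adjusted 0.13). The other 4 of the 6 lay between -0.10 and 0.19, with exact p of 0.086 to 0.54. Cntn1 and Nfasc were higher relative to the neuronal mean by 0.51 (SE 0.04) and 0.46 (SE 0.05), with no overlap (both exact p = 0.029, adjusted 0.086), and did not pass in this test. The share of all genes without overlap on this scale was not counted. In the limma fit given next, 77% of all genes were higher on this scale, so a rise is not particular to Cntn1 and Nfasc. Relative to the mean of the 15 myelin genes the values were alike in sign for all 9 genes, at 0.50 for Cntn1, 0.44 for Nfasc and -0.18 for Cntnap1, and the smallest adjusted exact p was 0.13.

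A limma fit of every gene minus the neuronal mean, added after the data were seen, gave Cntn1, Nfasc and Sptbn4 adjusted p of 0.0013, 0.0027 and 0.021. In that fit 3 of the 9 genes and 77% of all genes were higher. The same fit called 0 of the 9 genes lower, against 0.341% of all genes (0.413% relative to the myelin mean), and the 95% interval for Cntnap1 was -0.41 to 0.07. Relative to the myelin mean, Cntn1, Nfasc and Sptbn4 had 0.0026, 0.0028 and 0.021, again 3 of the 9 genes, where 74.8% of all genes were higher. The probe set of Sptbn4 was dim (mean 3.70, against a median of 4.74 over all genes), so its relative values are uncertain.

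**Figure D3:**
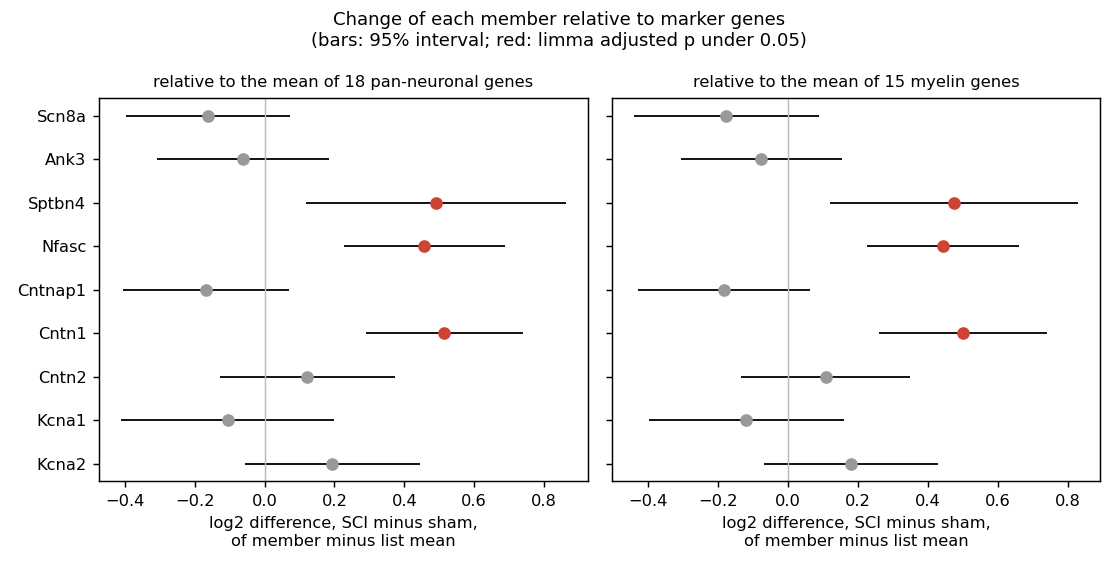
Log2 difference, SCI minus sham, of each gene after subtraction of the mean of the 18 pan-neuronal genes (left) or the 15 myelin genes (right) on the same array, with 95% intervals from the limma fit and red points at adjusted p under 0.05. Cntn1 at 0.51, Nfasc at 0.46 and Sptbn4 at 0.49, the last on a dim probe set, lie above the neuronal mean. The intervals of the other 6 genes include 0.

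Most other genes of nodal channels and their partners were lower in the same arrays. Of 10 genes of nodal channels and channel-binding proteins tested outside the set, 7 fell and 0 rose, with a median of -0.53. Scn1a, a sodium channel of fast-spiking neurons, fell by 0.91 (SE 0.13, limma adjusted p = 0.0013). Kcnq3, a subunit of the nodal M-type potassium channel, fell by 0.63 (SE 0.10, 0.0018), and the sodium channel beta subunit Scn4b by 0.66 (SE 0.11, 0.0036). The beta subunit Scn3b had -0.34 and the leak channels Kcnk4 and Kcnk2 had -0.30 and 0.09, with adjusted p of 0.061, 0.086 and 0.77. Without SCI 3, sham 1 and sham 2, 2 of the 10 passed.

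Among 10 genes of nodal adhesion and matrix, 2 fell and 3 rose, with a median of 0.05. Hapln2, the link protein of the matrix at central nodes, fell by 0.93 (SE 0.11, limma adjusted p = 3.2e-04), and Omg, a glycoprotein of oligodendrocytes, by 0.67 (SE 0.10, 0.0020). The proteoglycan Ncan rose by 0.46 (SE 0.11, 0.017). Dystroglycan, Dag1, rose as well (0.39, 0.017). Gldn, which gathers nodal proteins in peripheral nerve, was also called higher (0.53, 0.023), but on a probe set at 2.91 in sham and 3.44 in SCI, dimmer than that of most genes, so the size of its change is uncertain. Gldn is also counted among the Schwann cell genes that rose, so the rises in these lists are not separate. Nrcam, an adhesion partner of neurofascin at nodes, had -0.03 (adjusted p = 0.89). Without SCI 2 or sham 4, 1 rise was counted, as with the title number as covariate. All 3 rises, that of Ncan included, were lost with all probe sets tested together, and also without SCI 3, sham 1 and sham 2, where 2 falls and 0 rises were counted.

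Of 10 genes of the membrane cytoskeleton, 4 fell and 1 rose, with a median of -0.15. Ankyrin-R, Ank1, fell by 0.58 (SE 0.10, limma adjusted p = 0.0047). The band-4.1 proteins Epb41l1 and Epb41l3, the latter a linker at paranode and juxtaparanode, fell by 0.54 (SE 0.11, 0.0072) and 0.47 (SE 0.09, 0.0082). Their relative Epb41l2 rose (0.39, 0.032). The spectrins Sptan1 and Sptbn1 and ankyrin-B, Ank2, had -0.09, -0.07 and -0.17 and did not pass (adjusted p of 0.67, 0.68 and 0.24). The rise was lost without SCI 1, SCI 2, sham 1 or sham 2, with all probe sets tested together and with the title number as covariate. Without SCI 3, sham 1 and sham 2, 0 of the 10 passed.

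Partners at the juxtaparanode were mostly lower. Of 13 genes 11 fell and 0 rose, with a median of -0.46. Kcnab2, the beta subunit of the Kcna1 and Kcna2 channels, fell by 0.70 (SE 0.09, limma adjusted p = 7.3e-04). Adam23, a receptor of secreted Lgi proteins, fell by 0.74 (SE 0.10, 8.8e-04), and Kcna6, another Shaker-type alpha subunit, by 0.59 (SE 0.11, 0.0048). Lgi1 and Kcna4 had -0.09 and -0.39 (0.67 and 0.27). The count was 6 to 7 without SCI 1, SCI 2, SCI 3 or sham 2, 6 with all probe sets tested together, 7 with the title number as covariate, and 2 without SCI 3, sham 1 and sham 2.

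On the glial side, 5 of 7 genes of paranodal lipids and myelin loops fell and 0 rose, with a median of -0.59. This list shares genes with the myelin list above, Fa2h and Ugt8 among them, so their counts are not separate. Fa2h and Ugt8, which make the galactolipids that the paranodal junction needs, fell by 1.09 (SE 0.11, limma adjusted p = 1.9e-04) and 1.16 (SE 0.16, 9e-04). Ermn, a cytoskeletal protein of oligodendrocytes, fell by 0.78 (SE 0.11, 0.0013). Cers2 and Opalin had -0.002 and -0.13 (0.99 and 0.44). Without SCI 3, sham 1 and sham 2, 3 of the 7 passed.

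**Figure D4:**
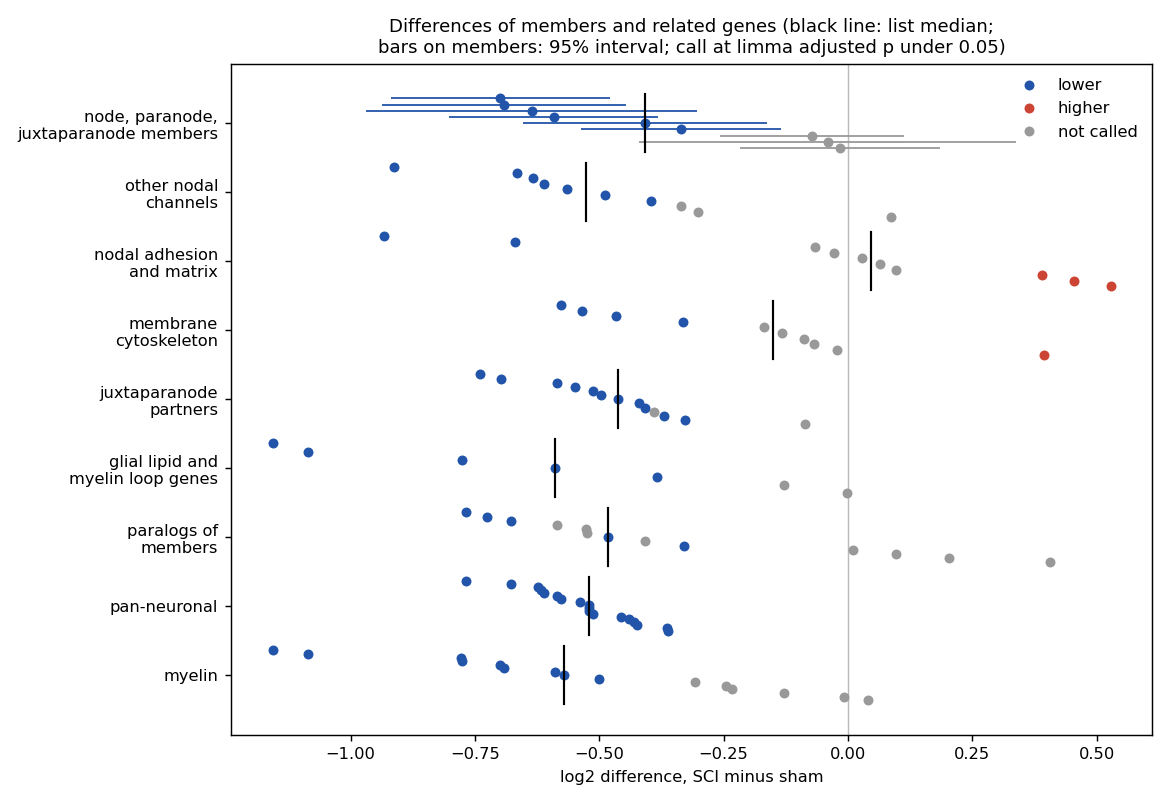
Log2 difference, SCI minus sham, of the 9 genes with 95% intervals (top row), of 6 lists of related genes and of the pan-neuronal and myelin lists; points are genes, coloured by call at a limma adjusted p under 0.05, and black lines are list medians. Of the 6 lower genes, 5 lie within the range of the pan-neuronal list and Kcna2 just above it, and the adhesion and matrix list and the cytoskeleton list hold genes called in both directions. The glial lipid and myelin lists share genes, Fa2h and Ugt8 among them.

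The genes whose log2 signals over the 8 arrays were most like the mean of the 9, after each was centred, were Klc1, Ank1, Slc6a5, Klhdc10 and Asah2, with Pearson r of 0.987 to 0.995. These r carry the difference between the groups and any variation between arrays that genes share, and are a description. Klc1, a kinesin light chain, had -0.36 (limma adjusted p = 0.032) and was called in 8 of 17 alternative settings, losing its call without any 1 array but SCI 4 or sham 1. Slc6a5, the glycine transporter of inhibitory neurons, had -0.67 (0.0028). Within the set, r with the pan-neuronal mean was 0.89 to 0.98 for the 6 lower genes. It was 0.78 for Nfasc, 0.34 for Cntn1 and 0.14 for Sptbn4. With the myelin mean r was alike, 0.87 to 0.96 for the 6 lower genes and 0.81, 0.16 and 0.21 for Nfasc, Cntn1 and Sptbn4.

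**Figure D5:**
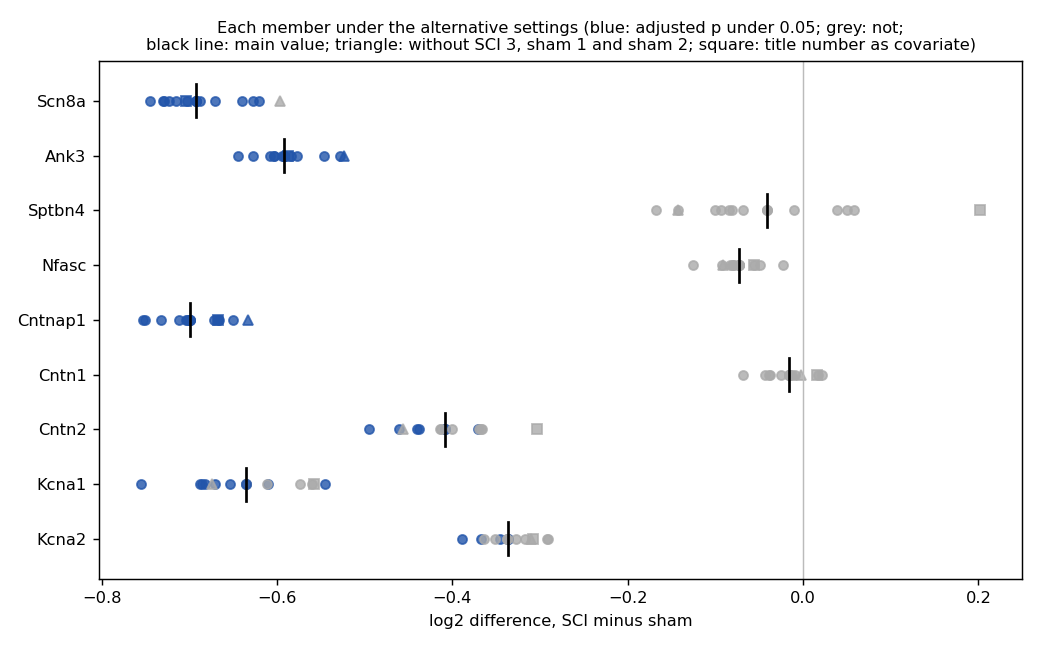
Log2 difference, SCI minus sham, of each gene under the alternative settings (points) and as reported (black line), blue where the adjusted p was under 0.05 and grey where it was not. Cntnap1 and Ank3 stay blue at every setting, Scn8a turns grey without SCI 3, sham 1 and sham 2, and Cntn2, Kcna1 and Kcna2 keep their sign with points on both sides of the threshold.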

How the data were processed

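The deposited log2 values were made by the authors with Affymetrix Expression Console and RMA, per the submitters' processing notes, from Rat Gene 2.0 ST arrays. RMA corrects background, brings arrays to a common scale and summarises probes, and it compresses differences of dim probe sets. Software versions, settings and the build used are not stated in the labels. Array medians were 3.73 to 3.81. The first principal component parted the groups, and the second set SCI 3, sham 1 and sham 2 apart.

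Of 36685 probe sets 18511 had 1 symbol, and the brightest probe set of each gene was kept (18166 genes). SCI and sham, 4 arrays each, entered a model without covariates (lmFit and eBayes of limma 3.58.1, R 4.3.3) and Benjamini-Hochberg adjustment over all genes; every gene's adjusted p comes from this model unless an exact test is named. The model was tested on simulated data. Replicate numbers follow the sample list and pair nothing. The number of arrays limits precision.

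The genes and lists were chosen with earlier results of these data known. The text names all 9 genes, the 3 related genes of each list with the smallest p, those named as not past the test, Mbp, Rbfox3, Gfap and Cd68, and the 5 genes most like the set. Gldn, Dag1, Epb41l2, Slc1a2, the Schwann cell genes, the precursor genes and those of the tissue check were chosen after their values were seen. The planned pair of Cntnap2 and Cntnap1 could not be computed. Alternatives were other scalings, variance models, filters, probe set rules, a covariate and left-out arrays. The covariate was the number in the sample title, whose meaning is not stated. It was 4, 6, 7 and 8 on SCI arrays 1 to 4 and 5, 9, 10 and 11 on sham arrays 1 to 4. It thus partly follows the groups, and calls lost under it do not show an effect of the number.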

Additional observations from a re-analysis of the deposited data

Results flagged for a closer look

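Among the genes named, 136 groups of 4 arrays were searched for an array far from the other 3, and 5 were found, where chance flags about 1 in 20 groups. The Schwann cell genes other than Gldn and Scn7a were not part of this search. Cntn6, a contactin related to Cntn1 and Cntn2, read 4.34 on SCI 2 against 4.69 to 4.75 on the other injured arrays. Kcna4 read 3.75 on SCI 3 against 4.08 to 4.15 on the other injured arrays, and Acta1 read 2.74 on SCI 3 against 4.01 to 4.18. Slc6a5 read 7.89 on sham 1 against 8.10 to 8.12 on the other sham arrays. Hoxc9 read 5.58 on sham 2 against 5.33 on each of the other sham arrays. None of the 9 node and paranode genes had such an array in either group.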

How the results depend on the processing

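Cntnap1 and Ank3 passed at every one of 17 settings, and all 6 lower genes kept their sign. The number of lower genes among the 9 was 3 with all probe sets tested together, 3 with the title number as covariate, 2 without SCI 3, sham 1 and sham 2, and 3 to 6 with each array left out in turn (3 without SCI 2, sham 3 or sham 4). Over all genes, 543 were lower and 813 higher with the covariate, and 284 lower and 563 higher without the trio. With an array left out, 780 to 1283 were lower and 923 to 1257 higher. The reported counts were 1282 lower and 1290 higher. With all probe sets tested together, 838 were lower and 1028 higher of 36685 probe sets, which is not a count of genes. The cause was not tested. Quantile normalization took Kcna2 to an adjusted p of 0.059. With the covariate Cntn2, Kcna1 and Kcna2 had 0.18, 0.10 and 0.14. The differences of Cntn1 and Sptbn4 changed sign, to 0.016 and 0.20 with the covariate and over -0.043 to 0.022 and -0.17 to 0.058 with an array left out, always without passing. Not past the test either, Nrcam changed sign to 0.00043 and Cers2 to 0.043 with quantile normalization, Kcnk2 to -0.026 and Nrcam to 0.042 with the covariate, and Cers2 to 0.0087 without the trio. With an array left out Kcnk2 ranged from -0.046 to 0.18, Nrcam from -0.080 to 0.0099 and Cers2 from -0.025 to 0.025. In the limma fit minus the neuronal mean, Cntn1, Nfasc and Sptbn4 (0.51, 0.46 and 0.49) passed, as they did minus the myelin mean (0.50, 0.44 and 0.47), but not in the exact test. Sptbn4, on a dim probe set, was not in the fit of genes above the median level. No paired analysis was possible because the labels give the groups no shared replicate numbers.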

Other observations

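Of 13 paralogs of the node and paranode proteins tested, 5 fell, 0 rose and 8 were not called, with a median log2 difference of -0.48. Of the 13, 4 had positive values, up to 0.41. The sodium channel relative Scn7a, counted with the Schwann cell genes, rose by 1.25 (SE 0.15, limma adjusted p = 4.7e-04). The contactins Cntn4 and Cntn6, which guide neurites in the developing nervous system, fell by 0.73 (SE 0.14, limma adjusted p = 0.0055) and 0.68 (SE 0.12, 0.0040). L1cam, an adhesion molecule of the family that holds neurofascin, fell by 0.48 (SE 0.11, 0.016). The count was 3 without any 1 of SCI 1, sham 2, sham 3 or sham 4, and 2 with all probe sets tested together or with the title number as covariate. Without SCI 3, sham 1 and sham 2, 2 of the 13 passed.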
